A study of Mus musculus with 21 samples.

Results

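The genes described here encode the enzymes, carriers and binding proteins of mitochondrial fatty acid oxidation in the mouse heart. They are 33 named genes, found in the table of read counts by their Ensembl identifiers. Each of the 33 symbols matched 1 gene among the 55450 genes of the table, and all 33 passed the filter on low counts, which kept 17309 genes. RNA came from the left ventricle of 21 male 129S6/SvEv mice in 4 groups. These were wild-type mice on control diet (WT-CD, n = 5), mice with the myosin mutation on control diet (R403Q-CD, n = 7), wild-type mice on a diet with empagliflozin (WT-EMPA, n = 5) and mutant mice on that diet (R403Q-EMPA, n = 4). Empagliflozin, an inhibitor of the sodium-glucose cotransporter SGLT2, was mixed into the control diet at 0.15 mg per g. The mutation lies in Myh6, the gene of the cardiac α-myosin heavy chain. The labels write the genotype as Myh6+/R404Q (R403Q), and the wild-type mice were littermates. Diets began at an age of 9 to 10 weeks. Per the study's methods, RNA was taken from a subset of mice at 2 weeks on diet, at an age of 12 weeks, and the 16 weeks that the sample labels give are, in those methods, the full course of treatment. The study's own RNA results do not include WT-EMPA, which is used here to measure the diet difference in both genotypes.

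Long-chain fatty acids enter the cardiomyocyte, are activated to acyl-CoA and cross the inner mitochondrial membrane as carnitine esters. Each turn of β-oxidation then uses a dehydrogenase, a hydratase, another dehydrogenase and a thiolase, with different enzymes for long, medium and short chains. The healthy adult heart draws much of its energy from this pathway, and many of its genes are targets of the nuclear receptor PPARα. Malonyl-CoA, made by acetyl-CoA carboxylase 2 (Acacb) and removed by malonyl-CoA decarboxylase (Mlycd), limits entry through carnitine palmitoyltransferase 1.

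The libraries held 23491535 to 43539684 counts (median 33329649), so that 3 counts corresponded to a level of 0.0689 to 0.128 CPM. CPM are counts per 1000000 counts of the library, with library sizes scaled by TMM. Mouse R403Q-CD 2 stood apart from the other mice. It held 10995.7 CPM of the stress marker Nppa, against 883 to 3826 CPM in the other R403Q-CD mice and 238 to 595 CPM in WT-CD. Its TMM factor of 1.111 was the highest of the 21. For each comparison, the number of the 33 genes called and their median are given with and without it. Cardiomyocyte genes were high in all groups, and the summed level of 7 such markers ran from 90480 to 99429 CPM in WT-CD and from 56577 to 92025 CPM in R403Q-CD. The mice came from 7 cages, 4 on control diet and 3 on the EMPA diet. As 0 cages held both diets, a difference between diets and a difference between cages cannot be told apart. In tissue RNA, fewer cells of a type and less RNA per cell cannot be told apart either.

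In WT-CD hearts the 33 genes spanned a wide range of levels, given here as RPKM, which is CPM divided by the length of the principal transcript in kilobases. Fabp3, the heart fatty acid binding protein, was highest at 1424 ± 182 RPKM (SD, n = 5). The medium-chain and long-chain acyl-CoA dehydrogenases followed, with Acadm at 915 ± 69.0 RPKM and Acadl at 761 ± 65.5 RPKM (SD, n = 5). Next came Acaa2, the mitochondrial thiolase (609 RPKM), the very long-chain dehydrogenase Acadvl (520 RPKM) and Hadha, the α subunit of the trifunctional protein that carries long chains through the later steps (507 RPKM). Means ± SD of these last 3 genes overlapped between neighbours. The electron transfer flavoprotein subunit Etfa (466 RPKM), the thioesterase Acot13 (440 RPKM) and the 3-hydroxyacyl-CoA dehydrogenase Hadh (411 RPKM) lay just below them. The enoyl-CoA hydratase Echs1 (319 RPKM), Etfdh, which passes electrons from the flavoprotein to ubiquinone (308 RPKM), the acyl-CoA synthetase Acsl1 (308 RPKM) and the enoyl-CoA isomerase Eci1 (268 RPKM) formed the next group.

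Middle levels were held by Hadhb, the β subunit of the trifunctional protein (178 RPKM), the dienoyl-CoA reductase Decr1 (147 RPKM), Hsdl2 (123 RPKM), the carnitine-acylcarnitine carrier Slc25a20 (115 RPKM) and carnitine palmitoyltransferase 2, Cpt2 (111 RPKM). The short-chain dehydrogenase Acads (108 RPKM), Etfb (106 RPKM), Eci2 (101 RPKM) and the fatty acid transport protein Slc27a1 (81.7 RPKM) were close to them. Lower levels belonged to Acad11 (58.0 RPKM), Mlycd (56.1 RPKM), Acacb (45.8 RPKM), the mitochondrial thioesterase Acot2 (37.0 RPKM), Acot7 (28.3 RPKM) and Acot9 (18.4 RPKM). The lowest were Cpt1a (17.6 RPKM), Acad9, which also serves in the assembly of respiratory complex I (12.0 RPKM), the carnitine transporter Slc22a5 (11.8 RPKM), Acad10 (2.31 RPKM) and, by a length that is mostly not countable for it, Cpt1b (3.41 RPKM). Of the 32 pairs of neighbours in this order, 10 were apart by more than their SDs and 22 were not. The order also moves with the length used. Echs1, 10th by its principal transcript, was 18th when all annotated exon bases were counted.

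**Figure D1:**
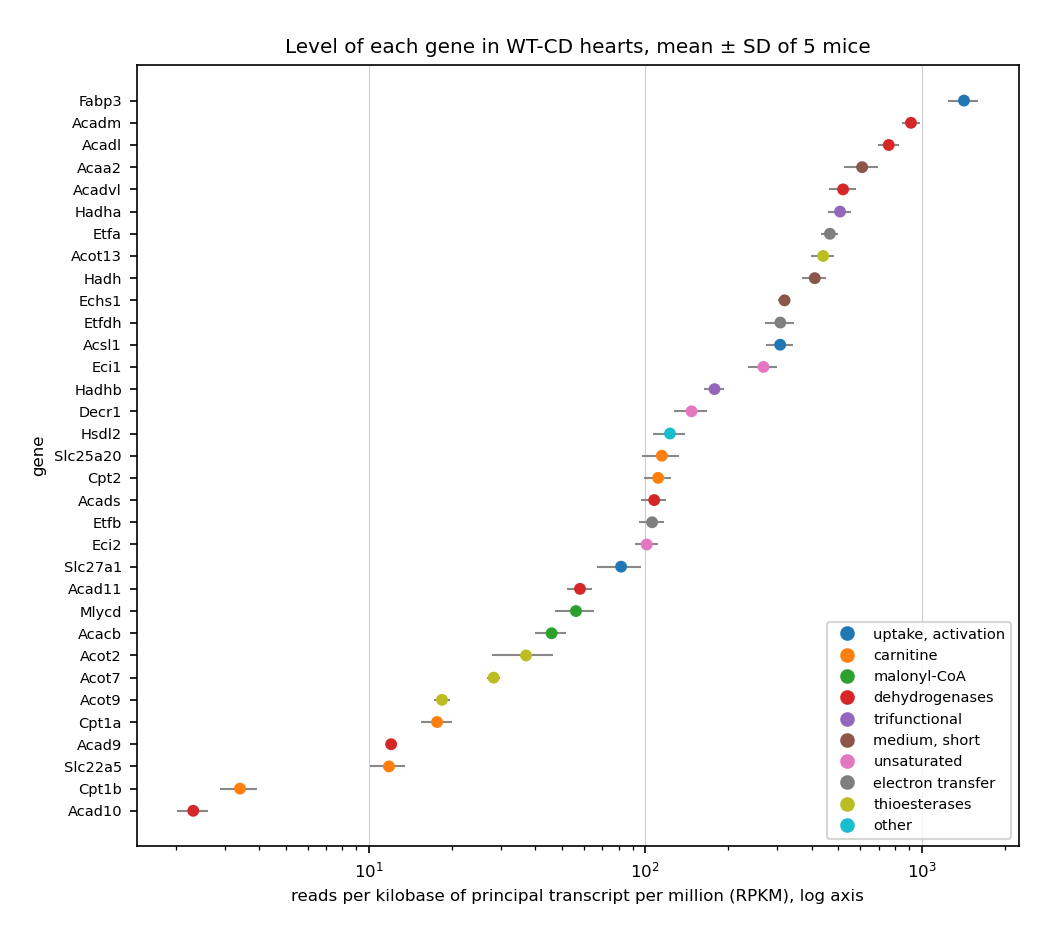
Level of each of the 33 genes in WT-CD hearts. The horizontal axis is RPKM on a log scale, points are means of 5 mice, bars are SD and colours mark the step of the pathway. Fabp3, Acadm and Acadl lie at the top, and Cpt1b and Acad10 at the bottom. Most exon bases of Cpt1b are shared with another gene, so its place is not a measure of its level.

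Some of these levels cannot be taken at face value, since the authors counted only uniquely aligned pairs and the annotation gives several members the same bases as other genes. Cpt1b, the muscle form of carnitine palmitoyltransferase 1, lies on chromosome 15 (GRCm38, bases 89416405 to 89425863, minus strand). The gene Gm44502 on the same strand covers 81.4% of its exon bases, and 91.1% of the 100-base windows in its transcript also occur there. Cpt1b held 7.76 to 11.7 CPM in WT-CD. Per kilobase of the exon bases outside Gm44502 this is 15.7 CPM on average, against 9.96 CPM for Cpt1a by the same measure, the reverse of their order in RPKM. Which of these genes is higher cannot be read from these counts. Etfb shared 58.2% of its exon bases with Gm45233 on the same strand, and 52.8% of the windows of Hadhb occur in Gm13910 or Gm9108. Fabp3 shared 21.7% of its windows with Fabp3-ps1, Acot2 shared 17.1% with Acot1, and Slc22a5 shared 13.7% with Slc22a21. Smaller shares were found for Acad9 (11.2%, Gm43079), Acad11 (10.5%, Ackr4 and Gm28305), Acad10 (10.4%, Acad12), Acadvl (8.26%, Dvl2), Eci2 (5.59%, Gm16984 and Eci3) and Acot9 (0.968%, Acot10). On the opposite strand, Dvl2 covered 42.9% of the exon bases of Acadvl, and Ackr4 and Gm16984 overlap Acad11 and Eci2 there. The authors counted pairs on the same strand only, so that overlaps on the opposite strand need not cost these members counts.

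The stretch that Acot2 and its paralog Acot1 share is shown because Acot2 carries the main diet result and the paralog moved with it. The longest run of coding sequence that is the same in both has 273 bases, at positions 1010 to 1282 of the 1359 coding bases of Acot2 and from position 887 of the 1257 coding bases of Acot1. Its first 120 bases, in the GENCODE transcripts of GRCm38, read as follows.
Acot2 and Acot1, shared coding sequence: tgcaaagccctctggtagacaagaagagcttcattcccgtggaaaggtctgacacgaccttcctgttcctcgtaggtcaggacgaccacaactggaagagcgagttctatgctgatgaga
A read pair that lies wholly in such a run has no unique position, and the counts of both genes rest on pairs that reach outside it.

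The first comparison asks how the mutation moved the pathway on control diet. Values of 31 of the 33 genes were lower in R403Q-CD than in WT-CD, with a median log2 fold change of −0.20, against 0.01 over all genes tested, of which 47.5% were below 0. In edgeR's quasi-likelihood test 0 of the 33 genes had a Benjamini-Hochberg adjusted p under 0.05, while 1.44% of all genes did. An unadjusted p under 0.05 was found for 5 members (15.2%), against 20.9% of all genes. DESeq2 and limma also called 0 of the members, with 5.73% and 1.28% of all genes called. With each mouse left out in turn, 0 members passed in every fit, while the share of all genes ran from 0.179% without WT-CD 3 to 6.02% without R403Q-CD 3. It was also more than 1.5 times lower without WT-CD 1 (0.207%), WT-CD 2 (0.447%), WT-CD 4 (0.311%) or R403Q-CD 5 (0.503%), and higher by as much without R403Q-CD 1 (2.44%). Other lists had values below 0 in the same comparison. These were 9 of 10 markers of mitochondrial mass, with a median of −0.19, 5 at an unadjusted p under 0.05 and 0 passing, and 15 of 17 regulators of fatty acid oxidation genes, with a median of −0.21. Of the regulators 1 passed, the transcription factor Klf15, which was lower (adjusted p = 0.0372, edgeR). Without R403Q-CD 2 the medians were −0.12 for mass and −0.16 for regulators. Acot9 and Acot13 were the 2 genes with values above 0.

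The smallest p in this comparison belonged to Acad9, on chromosome 3 (bases 36065979 to 36092853, plus strand). It held 47.5, 46.1, 47.3, 49.9 and 45.5 CPM in the WT-CD mice, and 30.6 at the lowest, 42.8 at the median and 44.2 at the highest in R403Q-CD. The groups did not overlap. Its log2 fold change was −0.24 (SE 0.08, adjusted p = 0.104, edgeR), followed by Cpt2 at −0.30 (SE 0.11, adjusted p = 0.143), Echs1 at −0.26 (SE 0.11, adjusted p = 0.199), Slc22a5 at −0.25 (SE 0.11, adjusted p = 0.200), Acadm at −0.29 (SE 0.13, adjusted p = 0.216) and Acot9 at 0.26 (SE 0.13, adjusted p = 0.239). None of these passed. Without mouse R403Q-CD 2 the values of these 6 genes were −0.19, −0.22, −0.17, −0.18, −0.20 and 0.12, in the same order. By step, with no test between steps, the median log2 fold change was −0.29 for the medium-chain and short-chain hydratase, dehydrogenase and thiolase (Echs1, Hadh, Acaa2), −0.24 for the trifunctional protein, −0.20 for the acyl-CoA dehydrogenases, −0.11 for the carnitine steps and −0.01 for the thioesterases. Without mouse R403Q-CD 2 these medians were −0.17, −0.14, −0.13, −0.03 and 0.02, in the same order.

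Mouse R403Q-CD 2 was the furthest from WT-CD. It was the lowest of all 21 mice for 31 of the 33 genes and the highest for Acot9, at 59.6 CPM. The median log2 ratio of its members to the WT-CD mean was −0.92, and mouse R403Q-CD 5 was next at −0.43. The other 5 R403Q-CD mice lay between −0.18 and 0.03. WT-CD 2, from the same cage as R403Q-CD 2, was the lowest of its own group for 27 genes. Other marker sets stood apart in R403Q-CD 2 as well. Its summed level of the 7 cardiomyocyte markers was 56577 CPM (next lowest in R403Q-CD 74574 CPM) and of 10 markers of mitochondrial mass 11552 CPM (next lowest 15605 CPM). Its sums of fibroblast markers (2976 CPM) and macrophage markers (242 CPM) were the highest of R403Q-CD, with the next at 2167 and 200.2 CPM. So was its sum of atrial markers (608 CPM), with the next at 157 CPM. The part of these in its low member values was not tested. Without R403Q-CD 2, values of 31 genes were below 0, the median log2 fold change was −0.11 and 0 genes passed, with 1.41% of all genes passing. The median coefficient of variation of the 33 genes was 20.9% in R403Q-CD (11.9% without R403Q-CD 2), 11.4% in WT-CD, 9.82% in R403Q-EMPA and 7.15% in WT-EMPA.

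**Figure D2:**
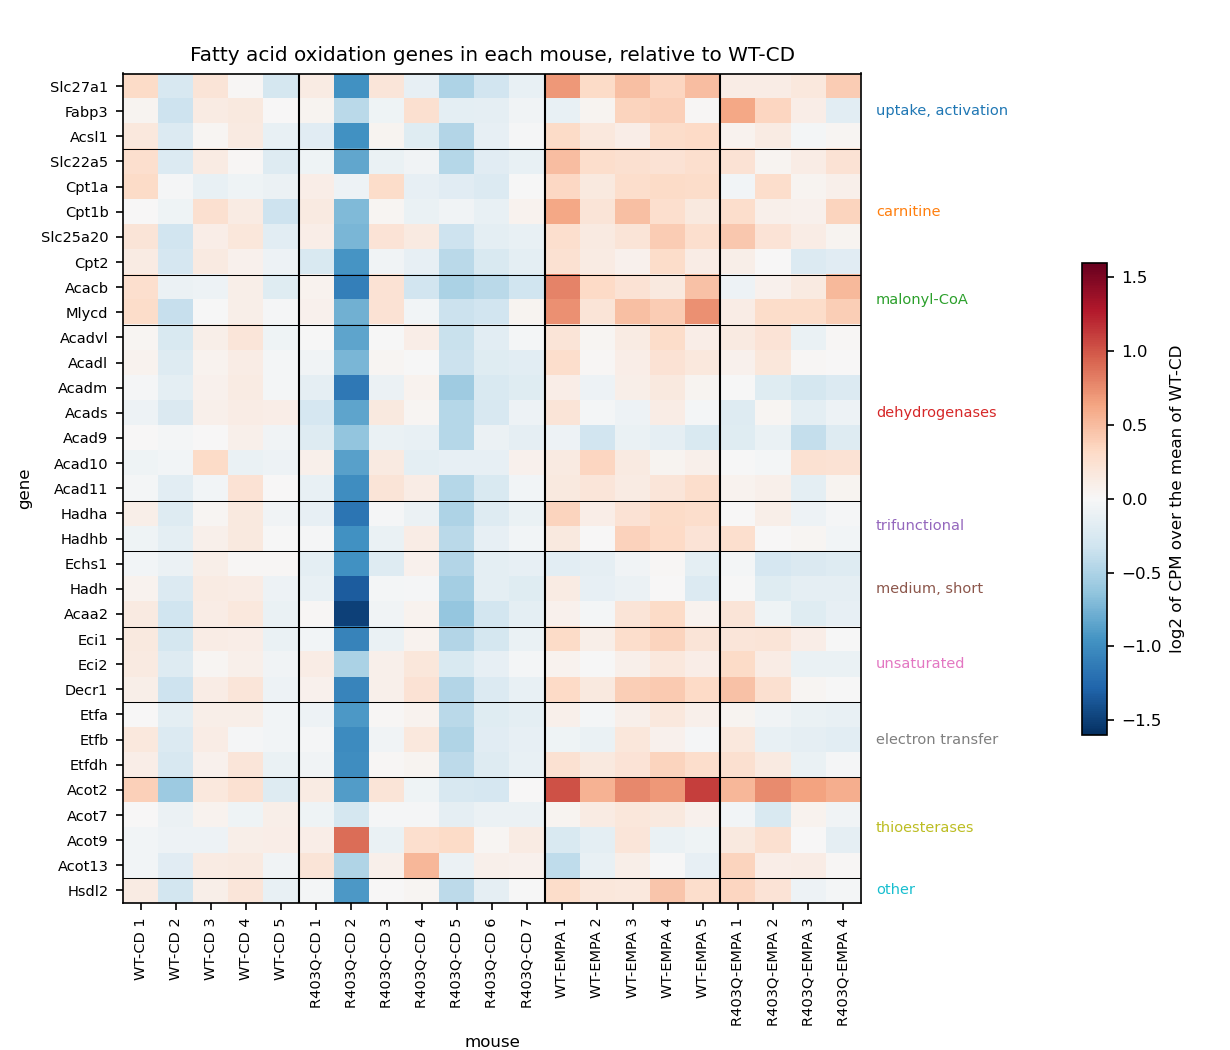
Level of each gene in each mouse. Columns are the 21 mice by group, rows are the 33 genes by step, and colour is the log2 ratio of CPM to the mean of WT-CD (blue lower, red higher). R403Q-CD 2 is blue in every row but Acot9, and Acot2 is red in all 9 mice on the EMPA diet.

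Within cages, where diet is the same for all mice, the mutant mice were lower for 26 to 32 of the 33 genes in each of the 6 cages that held both genotypes. The median log2 difference ran from −0.10 to −0.19 in the cages other than the cage of R403Q-CD 2, where it was −0.87. With cage as a factor in the fit, Acad9 (adjusted p = 0.0417, edgeR) and Cpt2 (adjusted p = 0.0370) fell in R403Q-CD, which is 6.06% of the members, against 6.52% of all genes in that fit.

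On the EMPA diet the mutant mice were again lower. Values of 30 of the 33 genes were below 0 in R403Q-EMPA against WT-EMPA, with a median log2 fold change of −0.15, and 0 genes passed, against 0.0578% of all genes. DESeq2 also called 0, with 1.79% of all genes called. An unadjusted p under 0.05 was found for 1 member (3.03%), against 14.7% of all genes. That was Acot7, a mostly cytosolic acyl-CoA thioesterase, at −0.19 (SE 0.06, adjusted p = 0.199, edgeR). Acot13 followed at 0.26 (SE 0.14, adjusted p = 0.385), then Cpt2 at −0.24 (SE 0.13, adjusted p = 0.395), Cpt1a at −0.18 (SE 0.10, adjusted p = 0.403), Hadha at −0.26 (SE 0.15, adjusted p = 0.447) and Mlycd at −0.25 (SE 0.16, adjusted p = 0.479). Without R403Q-CD 2, which enters this comparison only through the shared fit, the median was −0.16, 6 members (18.2%) had an unadjusted p under 0.05, against 19.1% of all genes, and 0 passed, against 1.17% of all genes.

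Averaged over both diets, which uses all 21 mice, 2 of the 33 genes were lower in mutant hearts and 0 were higher. This is 6.06% of the members, against 10.9% of all genes. Cpt2, which turns acylcarnitine back into acyl-CoA inside the mitochondrion, fell by 0.27 on the log2 scale (SE 0.09, adjusted p = 0.0478, edgeR). Acot7 fell by 0.14 (SE 0.04, adjusted p = 0.0350). Hadha at −0.27 (SE 0.10, adjusted p = 0.0906), Acadm at −0.27 (SE 0.10, adjusted p = 0.0926), Slc22a5 at −0.20 (SE 0.08, adjusted p = 0.116) and Acsl1 at −0.22 (SE 0.09, adjusted p = 0.121) were next. Values of 30 genes lay below 0, and the median was −0.17 against 0.01 over all genes. DESeq2 called Hadha beside Cpt2 and Acot7, 3 members (9.09%), against 15.4% of all genes.

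Cpt2 lies on chromosome 4 (bases 107903981 to 107923610, minus strand). It held 287, 219, 290, 275 and 248 CPM in WT-CD, and 136 at the lowest, 222 at the median and 252 at the highest in R403Q-CD. In WT-EMPA it held 310, 287, 276, 323 and 284 CPM, and in R403Q-EMPA 281, 264, 226 and 232 CPM. Mutant values were the lower on each diet, and the genotypes overlapped on both. Acot7 also lies on chromosome 4 (bases 152178134 to 152271855, plus strand). Its CPM were 42.7, 39.8, 44.2, 40.6 and 45.5 in WT-CD, and 35.1 at the lowest, 39.8 at the median and 42.0 at the highest in R403Q-CD. They were 43.9, 46.5, 48.1, 47.3 and 44.6 in WT-EMPA, and 41.2, 35.9, 44.2 and 40.7 in R403Q-EMPA. The difference was small and the genotypes overlapped on both diets. Both calls lay near the threshold. When each mouse was left out in turn, Acot7 passed in 14 of 21 fits and Cpt2 in 6. With cage as a factor Cpt2 passed (adjusted p = 0.0367, edgeR) and Acot7 did not (adjusted p = 0.0787), with 5.45% of all genes called. Both calls were lost with library size alone (adjusted p = 0.160 for Acot7 and 0.0510 for Cpt2) and without the filter on low counts (0.0613 and 0.0512). Without R403Q-CD 2, Hadha and Acadm fell and passed beside Cpt2 and Acot7, at a median of −0.13 over the members and with 30 values below 0. These 4 genes are 12.1% of the members, against 12.6% of all genes in that fit.

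Other genes moved with genotype in the same samples. Of 17 regulators of fatty acid oxidation genes, 4 were lower and 1 was higher over both diets. Klf15 (−0.33, adjusted p = 0.00937), PPARα itself (Ppara, −0.39, adjusted p = 0.0348), Esrrg (−0.24, adjusted p = 0.0307) and the corepressor Ncor1 (−0.20, adjusted p = 0.0391) were the lower ones, and Pparg (0.20, adjusted p = 0.0452) the higher. Of 26 other genes of the pathway or its neighbours, 5 were lower (Pccb, Acot11, Pcca, Acadsb and Ivd, between −0.22 and −0.39) and 2 higher (Fabp4 and Fabp5, each 0.43). Pccb, Pcca, Acadsb and Ivd serve the breakdown of branched-chain amino acids. Of 10 markers of mitochondrial mass, citrate synthase (Cs) was lower at −0.30 (adjusted p = 0.0337), and the median of the 10 was −0.13. All 4 macrophage markers were higher (0.41 to 0.63), with a summed level of 110 to 150 CPM in WT-CD and of 149.7 to 242 CPM in R403Q-CD. Of 4 fibroblast markers Dcn and Lum were higher, and the sum ran from 964 to 1555 CPM in WT-CD and from 1330 to 2976 CPM in R403Q-CD. Of 7 cardiomyocyte markers 1 was lower, Myh6, the gene that carries the mutation, at −0.39 (adjusted p = 0.0419). Without R403Q-CD 2, 7 regulators were lower and 0 higher, 7 of the other pathway genes were lower and 2 higher, and 2 mass markers were lower, while the counts of macrophage, fibroblast and cardiomyocyte markers did not change. The part of these cell types in the lower values of the members was not tested.

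The other question is what the EMPA diet did to the pathway. In mutant hearts, values of 32 of the 33 genes were higher in R403Q-EMPA than in R403Q-CD, with a median log2 fold change of 0.25, against −0.0036 over all genes, of which 49.2% were above 0. No member passed (0 of 33), and 0.0116% of all genes did. An unadjusted p under 0.05 was found for 14 members (42.4%), against 13.4% of all genes. DESeq2 called 1 member, Acot2 (3.03%), and 0.849% of all genes. Acot2 had the smallest p at 0.75 (SE 0.17, adjusted p = 0.103, edgeR), then Slc22a5 at 0.40 (SE 0.12, adjusted p = 0.181), Mlycd at 0.41 (SE 0.14, adjusted p = 0.251), Eci1 at 0.38 (SE 0.14, adjusted p = 0.260), Acacb at 0.47 (SE 0.18, adjusted p = 0.261) and Slc27a1 at 0.40 (SE 0.16, adjusted p = 0.278). This comparison shares its control mice with R403Q-CD against WT-CD, so that a low R403Q-CD mouse enters both with opposite sign. Without R403Q-CD 2 the median was 0.14, values of 29 genes lay above 0 and 0 passed. The members with an unadjusted p under 0.05 were then 8 (24.2%), against 11.6% of all genes.

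The comparison in wild-type hearts shares no mouse with the one in mutant hearts. Cages on each diet held both genotypes, however, so that a difference between cages can enter both comparisons. In wild-type hearts, values of 28 of the 33 genes were higher in WT-EMPA than in WT-CD. The median log2 fold change was 0.16 against −0.0036 over all genes. Again 0 genes passed, against 0.0289% of all genes, and 7 members (21.2%) had an unadjusted p under 0.05, against 11.0% of all genes. DESeq2 again called 1 member, Acot2 (3.03%), and 0.52% of all genes. Without R403Q-CD 2 in the shared fit, the median was 0.16, 16 members (48.5%) had an unadjusted p under 0.05, against 14.04% of all genes, and Acot2 passed (adjusted p = 0.0297, edgeR), against 0.0699% of all genes. Acot2 stood first at 0.81 (SE 0.18, adjusted p = 0.126, edgeR), followed by Mlycd at 0.51 (SE 0.15, adjusted p = 0.240), Cpt1a at 0.27 (SE 0.09, adjusted p = 0.288), Slc27a1 at 0.45 (SE 0.16, adjusted p = 0.304), Cpt1b at 0.35 (SE 0.14, adjusted p = 0.346) and Slc22a5 at 0.30 (SE 0.12, adjusted p = 0.357). The 5 genes with values below 0 were Acad9, Acot13, Echs1, Acot9 and Hadh. Acad9 was the lowest of them at −0.17, with 38.2 to 44.7 CPM in WT-EMPA against 45.5 to 49.9 CPM in WT-CD.

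Averaged over genotypes, 4 of the 33 genes rose on the EMPA diet and 0 fell. This is 12.1% of the members, against 2.91% of all genes. Acot2, which releases free fatty acids from acyl-CoA in the mitochondrial matrix, rose by 0.78 on the log2 scale, or 1.72-fold (SE 0.12, adjusted p = 0.00466, edgeR). Mlycd rose by 0.46, or 1.37-fold (SE 0.10, adjusted p = 0.0239). Slc27a1 rose by 0.43, or 1.34-fold (SE 0.11, adjusted p = 0.0452). Slc22a5 rose by 0.35, or 1.27-fold (SE 0.08, adjusted p = 0.0301). Acacb at 0.44 (SE 0.13, adjusted p = 0.0614) and Cpt1b at 0.32 (SE 0.10, adjusted p = 0.0708) were next and did not pass. Values of 29 genes were above 0, with a median of 0.20 against −0.01 over all genes, and 19 members (57.6%) had an unadjusted p under 0.05, against 20.1% of all genes. With cage as a random effect in limma-voom, Acot2 passed (adjusted p = 0.0157) and the other 3 did not, with Mlycd at 0.0632, Slc22a5 at 0.0752 and Slc27a1 at 0.112. In that fit 0.653% of all genes were called.

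By step of the pathway, the median log2 fold change was 0.45 for the malonyl-CoA enzymes Acacb and Mlycd, 0.31 for the enzymes of unsaturated acyl-CoA (Eci1, Decr1 and Eci2), 0.28 for the carnitine steps and 0.26 for uptake and activation. It was 0.25 for the trifunctional protein, 0.19 for the acyl-CoA dehydrogenases and 0.11 for electron transfer. It was 0.05 for the medium-chain and short-chain hydratase, dehydrogenase and thiolase, and 0.03 for the thioesterases, which held both Acot2 at the top and Acot9 at −0.13. The long-chain dehydrogenases Acadl and Acadvl were at 0.21 and 0.19, and the medium-chain and short-chain dehydrogenases Acadm and Acads at 0.09 and 0.08, with standard errors of 0.08 to 0.10. Without R403Q-CD 2 the median was 0.06 for electron transfer, −0.01 for the medium-chain and short-chain hydratase, dehydrogenase and thiolase, and 0.00077 for the thioesterases, and 0.13 to 0.40 for the other steps named here. Acadl and Acadvl were then at 0.17 and 0.15, Acadm and Acads at 0.04 and 0.03, and Acot9 at −0.06. Differences between steps or chain lengths were not tested.

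**Figure D3:**
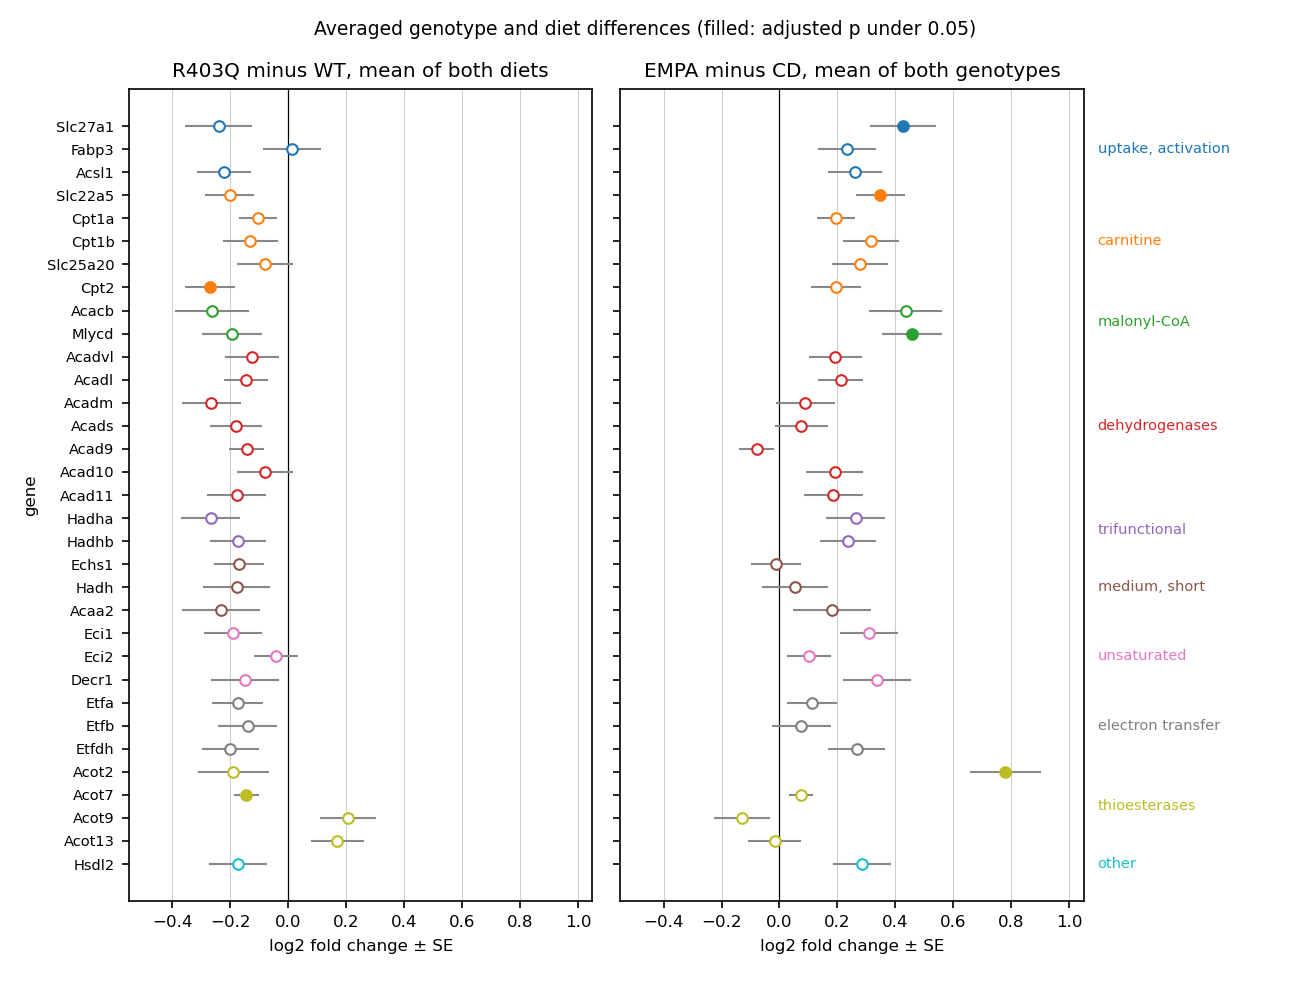
Log2 fold change of each gene for genotype (left, mean of both diets) and for diet (right, mean of both genotypes). Bars are standard errors, colours mark the step and filled points have an adjusted p under 0.05 in edgeR. The filled points are Cpt2 and Acot7 on the left and Slc27a1, Slc22a5, Mlycd and Acot2 on the right.

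Acot2 lies on chromosome 12 (bases 83987861 to 83993873, plus strand). It held 103, 52.9, 88.7, 93.2 and 68.3 CPM in WT-CD, and 42.7 at the lowest, 75.5 at the median and 91.6 at the highest in R403Q-CD. In WT-EMPA it held 161, 116, 135, 127 and 171 CPM, and in R403Q-EMPA 115, 133, 123 and 118 CPM. Every mouse on the EMPA diet was above every mouse on control diet, in both genotypes. Its paralog Acot1, which encodes the cytosolic form, rose by 1.48 on the log2 scale (SE 0.24, adjusted p = 0.00466), from 13.4 to 36.5 CPM in wild-type and from 12.0 to 33.7 CPM in mutant hearts. Acot2 was past the threshold in all 21 fits that left out a mouse.

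Mlycd lies on chromosome 8 (bases 119394878 to 119411102, plus strand). Its CPM were 144, 91.8, 118, 127 and 117 in WT-CD, and 69.5 at the lowest, 115 at the median and 139 at the highest in R403Q-CD. They were 197, 137, 165, 156 and 196 in WT-EMPA, and 128, 145, 145 and 155 in R403Q-EMPA. Diets overlapped in both genotypes, by the highest control mice and the lowest EMPA mice. The call held in 18 of 21 fits.

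Slc22a5, the sodium-dependent carnitine transporter of the plasma membrane, lies on chromosome 11 (bases 53864542 to 53891660, minus strand). It held 43.3, 30.9, 39.3, 36.2 and 31.2 CPM in WT-CD, and 20.1 at the lowest, 32.96 at the median and 34.4 at the highest in R403Q-CD. On the EMPA diet it held 50.7, 43.7, 42.8, 42.3 and 43.1 CPM in wild-type and 41.9, 37.0, 38.9 and 42.2 CPM in mutant hearts. Diets did not overlap in mutant hearts, and in wild-type hearts WT-CD 1 reached into the EMPA range. The call held in 15 of 21 fits.

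Slc27a1, also on chromosome 8 (bases 71568882 to 71587302, plus strand), held 279, 189, 259, 229 and 185 CPM in WT-CD. It held 115 at the lowest, 206 at the median and 259 at the highest in R403Q-CD. On the EMPA diet its CPM were 365, 278, 315, 287 and 316 in wild-type and 244, 244, 253 and 298 in mutant hearts. Diets overlapped in both genotypes, in wild-type hearts only through WT-CD 1. This was the least stable of the 4 calls and held in 6 of 21 fits. Without R403Q-CD 2, Eci1, Acacb and Cpt1b passed beside these 4 genes, and the median over the members was 0.17, with 28 values above 0 and 20 members (60.6%) at an unadjusted p under 0.05, against 21.02% of all genes. These 7 genes are 21.2% of the members, against 4.22% of all genes in that fit.

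Group means of other members, none of which passed in the averaged comparisons of the main edgeR fit, were as follows. DESeq2 called Hadha for genotype (15.4% of all genes called) and Acacb for diet (5.81% of all genes called). Hadha held 2036 ± 197 CPM in WT-CD, 1679 ± 385 CPM in R403Q-CD, 2426 ± 158 CPM in WT-EMPA and 2030 ± 106 CPM in R403Q-EMPA (SD). Acadm held 1874 ± 141 CPM in WT-CD and 1956 ± 119 CPM in WT-EMPA, against 1529 ± 363 CPM in R403Q-CD and 1658 ± 142 CPM in R403Q-EMPA. Its diet difference was 0.09 on the log2 scale (95% interval −0.11 to 0.29) with all mice. Acacb, which makes malonyl-CoA and so acts opposite to Mlycd, held 402.6 ± 52.7 CPM in WT-CD and 531 ± 98.1 CPM in WT-EMPA, and 327 ± 91.4 CPM in R403Q-CD and 454 ± 85.3 CPM in R403Q-EMPA. Of these enzymes of malonyl-CoA, both with higher values on the EMPA diet, Mlycd passed in the main edgeR fit and Acacb did not. Both passed in DESeq2 and with library size alone, and neither passed with cage as a random effect in limma-voom. Cpt1a, the liver form of carnitine palmitoyltransferase 1, held 76.1 ± 9.79 CPM in WT-CD and 74.5 ± 9.69 CPM in R403Q-CD, against 91.7 ± 4.12 CPM in WT-EMPA and 81.0 ± 7.95 CPM in R403Q-EMPA. Acot13 was the member with higher values in mutant hearts on both diets beside Acot9, at 317 ± 29.3 against 335 ± 69.3 CPM on control diet and 295 ± 37.3 against 353 ± 35.8 CPM on the EMPA diet.

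**Figure D4:**
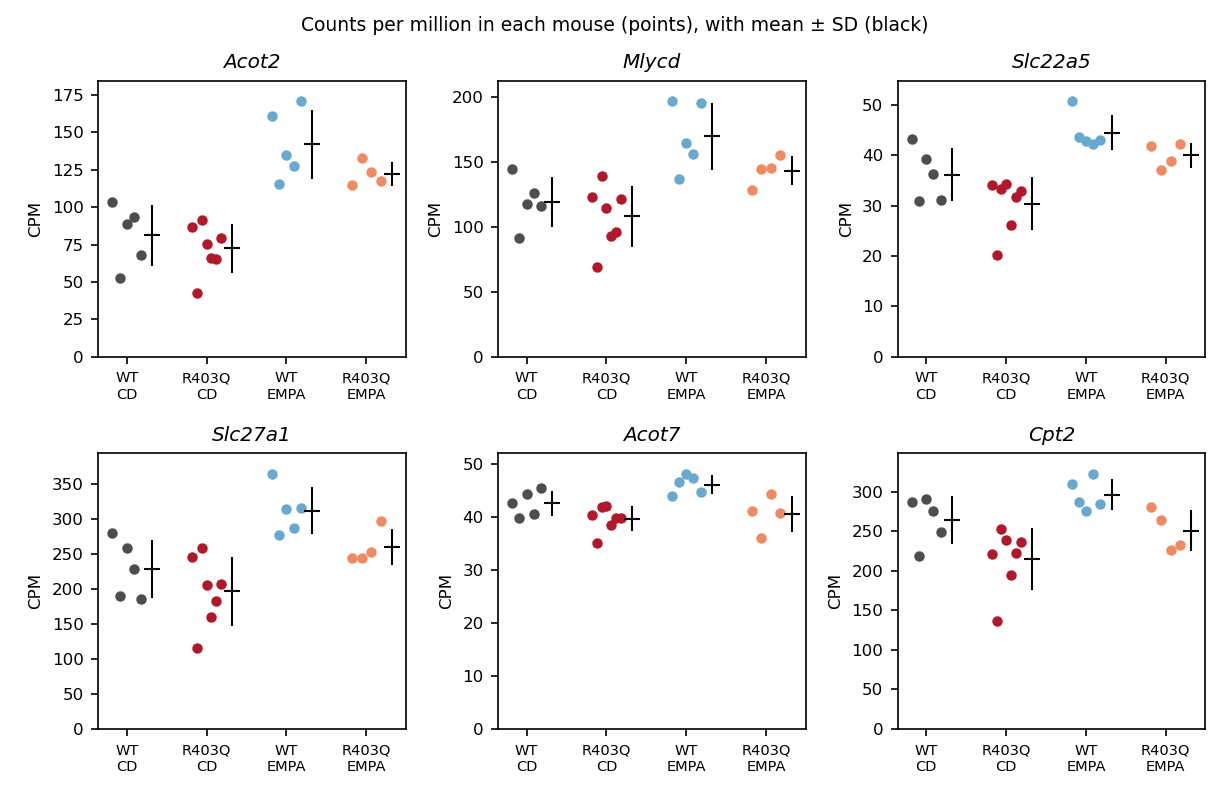
CPM of the 6 genes that passed in an averaged comparison of the main edgeR fit, in each mouse, by group. Points are mice, black marks are means with SD and each vertical axis starts at 0. Acot2 on the EMPA diet lies above all mice on control diet, while Cpt2 and Acot7 overlap between genotypes.

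Further genes rose with the diet in the same hearts. Of 12 markers known to respond to PPARα, 6 rose and 0 fell. Among them were Angptl4 (1.57, adjusted p = 0.00530), Pdk4 (1.15, adjusted p = 0.0253), Ucp3 (0.92, adjusted p = 0.0211) and Plin2 (0.44, adjusted p = 0.0120). Of the 26 other genes of the pathway or its neighbours, 4 rose, namely Acot1, Acsl3 (0.47), the mitochondrial CoA carrier Slc25a42 (0.47) and the fatty acid translocase Cd36 (0.26). Of the 17 regulators 0 passed, with 8 at an unadjusted p under 0.05 and a smallest adjusted p of 0.0589. The 10 markers of mitochondrial mass had a median of −0.02 and 0 passed, with 0 at an unadjusted p under 0.05.

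Clock genes and red cell genes moved with the diet as well. Of 15 clock genes 2 rose, Arntl at 1.70 (adjusted p = 0.0244) and Clock at 0.36 (adjusted p = 0.0411), and 5 fell, with Ciart at −1.43 (adjusted p = 0.00698) and Dbp at −1.02 (adjusted p = 0.0289) the furthest and Nr1d1, Hlf and Per1 between −0.62 and −0.34. The labels used here give no time of day for the tissue. Arntl was not high in all EMPA mice. It held 10.0 to 17.1 CPM in WT-EMPA 1, 3 and 5 and in R403Q-EMPA 3 and 4. It held 1.98 to 4.32 CPM in WT-EMPA 2 and 4 and in R403Q-EMPA 1 and 2. Mice on control diet held 1.27 to 6.81 CPM. Dbp held 23.0 to 36.2 CPM in the mice with high Arntl and 57.1 to 76.0 CPM in the other EMPA mice. Its control range was 55.2 to 130 CPM. All 3 red cell markers rose (0.50 to 0.67), with summed levels of 624.9 to 1123 CPM in WT-CD and of 1103 to 1769 CPM in WT-EMPA. Kdr, of the 4 endothelial markers, rose by 0.35 (adjusted p = 0.0217). Values of the 3 smooth muscle markers were below 0, with a median of −0.55, 2 at an unadjusted p under 0.05 and 0 passing. The 3 atrial markers tested had a median of −2.40 and 0 passed, with 3 at an unadjusted p under 0.05, and the sums of all 4 listed reached 260 CPM in WT-CD and 608 CPM in R403Q-CD but 78.1 CPM in WT-EMPA and 34.8 CPM in R403Q-EMPA. Each of these highest sums came from 1 mouse (WT-CD 5, R403Q-CD 2, WT-EMPA 1 and R403Q-EMPA 2), and the next highest were 54.8, 157, 38.7 and 9.37 CPM. Without R403Q-CD 2, 8 of the PPARα markers rose, 8 clock genes fell, 1 regulator rose, 1 of the other pathway genes fell and the atrial median was −1.81, while the counts for red cell, endothelial and mass markers did not change. The part of sampling time or of these cell types in the diet difference of the members was not tested.

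The last comparison asks whether the diet difference depended on genotype. No member passed the test of the interaction (0 of 33, and 0% of all genes), with 0 members at an unadjusted p under 0.05, against 3.28% of all genes, and DESeq2 also called 0. The smallest p belonged to Acad9, which stood at −0.17 in wild-type and 0.02 in mutant hearts, a difference of 0.19 (SE 0.12, adjusted p = 0.999, edgeR). Cpt1a differed by −0.15 (SE 0.13), Echs1 by 0.17 (SE 0.17), Hadh by 0.23 (SE 0.23), Acot13 by 0.18 (SE 0.18) and Acot7 by −0.08 (SE 0.09), each at the same adjusted p. For Acot2 the difference was −0.05 (SE 0.25). Without R403Q-CD 2, Acad9 differed by 0.13, Cpt1a by −0.16, Echs1 by 0.08, Hadh by 0.11, Acot13 by 0.10, Acot7 by −0.11 and Acot2 by −0.15, and 0 members passed or had an unadjusted p under 0.05. The median over the members was 0.06 with R403Q-CD 2 and −0.03 without it.

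The start regions of the 4 genes called higher on the EMPA diet in the main edgeR fit are shown. Whether these members move together was not tested. RefSeq (GRCm38.p6) held start regions for 28 of the 33 genes, 31 in all, and the first 230 bases of each were used, which end 20 bases before the RefSeq start. Capitals mark the CCAAT box (CCAAT) and the GC box (GGGCGG), found on either strand.
Acot2, chr12:83987611-83987840, plus strand: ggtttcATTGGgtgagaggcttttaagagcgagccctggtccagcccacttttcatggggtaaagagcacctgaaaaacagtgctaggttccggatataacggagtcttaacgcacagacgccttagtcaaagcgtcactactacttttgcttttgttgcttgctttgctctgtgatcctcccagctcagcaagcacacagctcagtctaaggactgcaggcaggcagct
Mlycd, chr8:119394644-119394873, plus strand: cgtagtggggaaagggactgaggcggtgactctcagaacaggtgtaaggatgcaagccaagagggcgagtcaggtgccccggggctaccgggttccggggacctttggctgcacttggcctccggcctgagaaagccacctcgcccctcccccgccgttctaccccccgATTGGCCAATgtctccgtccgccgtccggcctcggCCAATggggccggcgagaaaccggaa
Slc22a5, chr11:53891724-53891953, minus strand: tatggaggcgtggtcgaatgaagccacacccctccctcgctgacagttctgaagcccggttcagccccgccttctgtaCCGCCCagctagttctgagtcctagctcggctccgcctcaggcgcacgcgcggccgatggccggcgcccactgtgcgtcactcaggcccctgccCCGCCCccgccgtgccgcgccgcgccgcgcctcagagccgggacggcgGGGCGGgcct
Slc27a1, chr8:71568621-71568850, plus strand: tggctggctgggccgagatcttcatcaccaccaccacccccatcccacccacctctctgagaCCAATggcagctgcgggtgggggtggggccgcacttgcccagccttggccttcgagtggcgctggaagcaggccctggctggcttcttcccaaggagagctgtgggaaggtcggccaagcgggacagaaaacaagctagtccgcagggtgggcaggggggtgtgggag

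Acot2 and Slc27a1 hold 1 CCAAT box each, Mlycd holds 3 and Slc22a5 holds 3 GC boxes. Slc27a1 has 3 start regions in RefSeq, and the region nearest the principal transcript is printed. Of the 31 start regions of the members, 13 (41.9%) held a CCAAT box, against 32.2% of 32851 start regions of the same length, and 17 (54.8%) held a GC box, against 29.8%. The nuclear receptor core AGGTCA occurred in 4 regions (12.9%: Acadm, Acadvl, Cpt1a and Echs1), against 13.0% of all regions. The element TCAAGGTCA, which contains it, occurred in 0 regions of the members and 0.371% of all regions. A DR1 element, a direct repeat of the core with 1 base between, occurred in 0 regions of the members and 0.0304% of all regions. No match says only that these letters are not in this window.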

How the data were processed

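RNA of 21 left ventricles, a mouse each, was analysed. The authors selected polyadenylated RNA, sequenced read pairs and aligned them to mm10 with STAR 2.6.0c. They assigned uniquely aligned proper pairs to Ensembl genes on the same strand with featureCounts (Subread 1.6.2). The authors deposited these raw counts and log2 values, which are the counts after the variance-stabilizing transformation of DESeq2 1.32.0. The table held 0 genes of the mitochondrial genome. Depth is in counts per mouse. Precision in the main fit is set by the spread between mice, also for diet, although each cage held a single diet.

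The main fit used edgeR 4.0.16 under R 4.3.3, with filterByExpr (minimum count 10), TMM and the quasi-likelihood F test. It took all 4 groups in a single fit, with contrasts for genotype, diet and their interaction. P-values were adjusted by Benjamini-Hochberg over 17309 genes (threshold 0.05). On simulated counts, 93% of 200 genes changed 2-fold in R403Q-CD were recovered among 17120 tested, and 4.12% of 194 calls were false. For R403Q-EMPA against R403Q-CD, 93.5% were recovered among 17130, with 5.08% of 197 calls false. A 2-fold change is larger than that of any member in either comparison. The simulation also held no cage difference and no mouse that stood apart. The recovered shares therefore do not say how often changes as small as those of the members would pass. Symbols, positions and transcript lengths came from GENCODE M21 of GRCm38, the assembly of mm10, and not from the authors' own annotation release. RPKM divide CPM by the principal transcript. The log2 values served as an alternative with limma 3.58.1.

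Named genes were chosen by rule: fold change, SE and adjusted p for members past the threshold or, where fewer than 6 pass, the 6 with the smallest p in each contrast, and context genes that pass, at most 6 per list. A few context genes that passed are left out of the text. Cases named beside the rule, such as Nr1d1, Ivd or the genes on the lower side of 0, were chosen after their values were seen. The members, lists and tests were chosen with earlier results of these data known. Alternatives were DESeq2 1.42.0, no filter, library size alone, RLE, limma on the log2 values, cage as a random effect in voom or as a factor, fits of 2 or 3 groups, and each mouse left out. Mice were numbered in the order of their records, and the numbers pair no mice.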

Additional observations from a re-analysis of the deposited data

Results flagged for a closer look

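In 7 of 132 sets of values (33 genes in 4 groups), the highest or lowest mouse lay further from its group than Dixon's limit allows. Chance gives about 1 in 20, or 6.6 sets. Mouse R403Q-CD 2 accounted for 3 of them, with 5.98 CPM of Cpt1b and 4.80 CPM of Acad10 at the low end and 59.6 CPM of Acot9 at the high end of R403Q-CD. The others were Cpt1a at 93.3 CPM in WT-CD 1, Acad10 at 10.9 CPM in WT-CD 3, Slc22a5 at 50.7 CPM in WT-EMPA 1 and Etfb at 105.7 CPM in R403Q-EMPA 1. Cpt1b, Etfb, Acad10 and Slc22a5 share bases with other genes.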

How the results depend on the processing

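Over the alternatives run, the median log2 fold change of the 33 genes ran from −0.31 (cage as a factor) to −0.11 (without R403Q-CD 2) in R403Q-CD against WT-CD, from 0.14 (without R403Q-CD 2) to 0.29 in R403Q-EMPA against R403Q-CD, from 0.14 to 0.20 in WT-EMPA against WT-CD, from −0.17 to −0.10 (library size alone) in R403Q-EMPA against WT-EMPA, from −0.24 to −0.12 for genotype and from 0.17 to 0.22 for diet. The interaction median changed sign, from 0.06 to −0.03 without R403Q-CD 2. For R403Q-CD against WT-CD, 2 genes passed with cage as a factor (Acad9 and Cpt2), with 6.52% of all genes. In every fit without a mouse 0 passed, with 0.179% to 6.02% of all genes. DESeq2 called 1 gene, Acot2, in each of the diet comparisons within a genotype (0.849% of all genes in R403Q and 0.52% in WT hearts), and 7 genes for the diet averaged over genotypes (5.81% of all genes). In WT-EMPA against WT-CD, fits without a mouse called 0 to 1 genes, the 1 being Acot2 without R403Q-CD 2 (0.0699% of all genes). For genotype averaged over diets, 0 genes passed without the filter (4% of all genes) or with library size alone (13.6%). DESeq2 called 3 (15.4%), and 1 (Cpt2) passed with cage as a factor (5.45%). Fits without a mouse called 0 to 4 genes, with 5.46% to 15.9% of all genes called. The count of members was 0 without WT-CD 1, WT-CD 3, WT-CD 5, WT-EMPA 2, WT-EMPA 4, R403Q-EMPA 1 or R403Q-EMPA 2. It was 1 without WT-CD 4, WT-EMPA 1, WT-EMPA 5, R403Q-CD 1, R403Q-CD 5, R403Q-CD 6, R403Q-EMPA 3 or R403Q-EMPA 4. For diet averaged over genotypes, 1 gene (Acot2) passed with cage as a random effect in voom (0.653% of all genes). Without a mouse 1 to 7 genes passed, with 0.698% to 5.35% of all genes called. The count of members was 1 without WT-EMPA 5, R403Q-EMPA 3 or R403Q-EMPA 4. It was 2 (Acot2 and Mlycd) without WT-CD 2, WT-CD 5 or WT-EMPA 1, and 7 without R403Q-CD 2. The causes were not tested. Among single genes, 1118 values kept their side of the threshold, 16 passed it and 54 lost it. Library size alone moved the median of all genes from 0.01 to 0.08 in R403Q-CD against WT-CD. Over all alternatives, 28 to 1128 genes of the whole table passed in R403Q-CD against WT-CD, 944 to 2764 for genotype averaged over diets and 113 to 1005 for diet averaged over genotypes. Replicate numbers pair no mice, and cage was the block used, as a factor or a random effect. The lowest level of any member in any mouse was 4.80 CPM (Acad10), above the 3-count limit of 0.0689 to 0.128 CPM.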
